A study of Mus musculus with 40 samples.

Results

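The hematopoietic progenitor (HP) stage of an enhancer screen in mouse HM-1 embryonic stem cells is described here by the DNA fragments found in its 4 fluorescence gates. In the screen, open-chromatin fragments of 5 differentiation stages had been cut out by the Tn5 transposase and cloned in front of the HSP68 minimal promoter and a Venus-YFP gene. The plasmid libraries had then been mixed, and a single construct per cell had been placed at the Hprt locus. HM-1 cells are of strain 129/ola, and every group shared the repaired Hprt locus. HP cells were the floating cells of serum blast culture, sorted as KIT+, TIE2- and CD41+. They were then split by YFP level into the groups Negative, Low, Medium and High, each with 2 replicates, the Negative gate having been set on a line with the minimal promoter and no insert. A fragment found in any of the 3 YFP-expressing gates (Low, Medium, High) was called positive in that replicate, and positive fragments were compared with the Negative fragments of the same replicate. The 8 HP lists were chosen by their titles and held 67088 different fragments, of 354627 in all 40 lists of the series. Since the lists hold insert DNA and not RNA, the HP label could not be checked against marker genes and rests on the sort.

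HP cells arise when hemogenic endothelium passes through the endothelial-hematopoietic transition, and RUNX1, PU.1 (Spi1), GATA2, TAL1, LMO2, FLI1 and GFI1B are factors known to act in that step. An enhancer is a stretch of DNA that raises transcription from a promoter when factors bind its short motifs. Because the fragment is read out at a fixed site with a minimal promoter, the gate of a cell is taken in the screen as a readout of the inserted fragment. CTCF, which recurs below, is a zinc-finger protein known for its binding to long, well-defined sites and for its part in holding chromatin loops and insulating genes.

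The sequences below are those the comparisons turned on, read from GRCm38, the assembly that mm10 names, on its forward strand. The test per region set 4 groups of fragments apart, and the stretch around their variable ends is printed for 3 of these, with the longest run of a repeated pair of bases in capitals. They lie near Stx3 (chr19:11800466-11800603), near Ndufa8 (chr2:36021717-36021820) and near Foxk1 (chr5:142319860-142319953).
Stx3: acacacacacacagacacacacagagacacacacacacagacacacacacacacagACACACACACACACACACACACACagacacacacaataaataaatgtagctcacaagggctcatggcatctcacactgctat
Ndufa8: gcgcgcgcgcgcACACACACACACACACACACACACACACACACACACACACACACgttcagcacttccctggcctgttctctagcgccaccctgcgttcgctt
Foxk1: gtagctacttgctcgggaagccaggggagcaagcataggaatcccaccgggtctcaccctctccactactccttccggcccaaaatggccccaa
The runs are 12 copies of AC near Stx3 and 22 near Ndufa8, and the Foxk1 stretch holds no run of 6 or more copies. The reference is not of strain 129, so the number of copies in the inserts is not known.

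The next 4 stretches show the CTCF consensus in capitals. They belong to regions with many HP fragments holding it, among those found in positive gates of both replicates. The choice was made after the values were seen and did not take in every chromosome, so other regions may hold more. The 4 stretches lie nearest the start sites of Myo18a (chr11:77763203-77763262), Gm10785 (chr16:91694858-91694917), Snx32 (chr19:5529488-5529547) and Tnfrsf14 (chr4:154944472-154944531).
Myo18a: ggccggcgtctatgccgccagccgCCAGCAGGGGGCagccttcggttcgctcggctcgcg
Gm10785: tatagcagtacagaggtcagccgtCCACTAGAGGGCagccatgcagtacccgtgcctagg
Snx32: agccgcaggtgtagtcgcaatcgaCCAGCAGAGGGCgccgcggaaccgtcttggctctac
Tnfrsf14: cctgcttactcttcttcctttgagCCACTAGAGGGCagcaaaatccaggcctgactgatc
Each match reads in the same orientation on the forward strand, and the flanking bases differ.

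The last pair shows the middle 300 bases of the most often positive region at Runx1 (chr16:92822270-92822569) and at Spi1 (chr2:91082838-91083137), with any match to the 11 consensus sequences (spelled out with the methods, except CTCF) in capitals.
Runx1: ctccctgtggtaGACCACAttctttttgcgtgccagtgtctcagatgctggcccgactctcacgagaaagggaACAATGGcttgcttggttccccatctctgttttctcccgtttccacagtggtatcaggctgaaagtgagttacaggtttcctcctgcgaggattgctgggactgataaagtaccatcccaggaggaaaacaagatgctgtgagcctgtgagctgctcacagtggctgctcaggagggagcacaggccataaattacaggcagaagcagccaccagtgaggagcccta
Spi1: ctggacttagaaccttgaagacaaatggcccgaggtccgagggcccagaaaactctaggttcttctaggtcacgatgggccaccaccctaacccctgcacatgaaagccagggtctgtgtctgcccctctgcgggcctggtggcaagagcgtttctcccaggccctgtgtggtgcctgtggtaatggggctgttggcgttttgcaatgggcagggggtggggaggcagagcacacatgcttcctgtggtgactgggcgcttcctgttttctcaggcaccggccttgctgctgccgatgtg
The Runx1 stretch holds a match to the RUNX consensus (TGTGGTC or TGTGGTT), as GACCACA on the strand printed, and a match to the SOX consensus. The Spi1 stretch holds no match to any of the 11, which says only that these letters are not in this window.

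The lists differed in depth and in what they shared. Replicate 1 held 8458 Negative, 4869 Low, 18294 Medium and 16508 High fragments, and replicate 2 held 14951, 2215, 1630 and 1796. The order was turned round between replicates, with more positive than Negative fragments in replicate 1 and fewer in replicate 2. In replicate 1 no fragment was listed in more than 1 gate, although 237 of the 16508 High fragments had a partner in Medium with both ends within 5 bp. In replicate 2 the gates overlapped, and 842 fragments stood in both Negative and Low, which was 38.0% of Low (Wilson 95% interval 36.01 to 40.05%) and 5.63% of Negative. Medium shared 291 fragments with Negative (17.9% of Medium, 1.95% of Negative) and High shared 203 (11.3% and 1.36%). Identical fragments were also found at other stages of the same replicate, for 36.3% of High of replicate 1 and 62.5% of Low of replicate 2. The last list shared 43.9% of its fragments with HE1 Low and 40.8% with HE2 Negative. Comparisons below are therefore also given, where it changed a value, without shared fragments.

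The region comparison asked which stretches of the genome were found more often in positive or in Negative gates. Overlapping fragments of all 40 lists were joined into regions, and 28122 of these held an HP fragment. In replicate 1, 8643 regions were positive only, 949 Negative only and 4671 both, while in replicate 2 the numbers were 3347, 11626 and 1017. The deeper side thus had the larger share of regions to itself in each replicate. Of the 873 regions with at least 10 HP fragments, 4 differed between positive and Negative (0.458% of those tested), 2 in each direction, by a Cochran-Mantel-Haenszel test with replicate as stratum and Benjamini-Hochberg adjustment. At an unadjusted p under 0.05 there were 38 (4.35%). Fragments of a list are not independent molecules, and these p-values cover the counting of fragments and not the spread between cultures.

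The largest departure was near Stx3, which codes for a membrane fusion protein. The region (chr19:11800494-11801067, in an intron 18616 bp from the nearest start site) held 18 Negative fragments, 0 Low, 1 Medium and 2 High in replicate 1, and 13 Negative and no positive ones in replicate 2. Positive fragments numbered 3 against 20.7 expected from the depth of the gates (adjusted p = 2.5e-10). The Negative fragments of both replicates formed a ladder. In replicate 1 all 18 ended at the same base and had 18 different starts, and in replicate 2 all 13 ended at the same base and had 13 different starts. The starts fell in and just before the AC run printed for Stx3, within a stretch of interrupted AC repeats, and lay even numbers of bases apart. Counted once per shared end, the region held 1 Negative fragment in each replicate. At other stages the region held 28 fragments in HE1 Negative and 14 in ES High of replicate 1, and 26 in HE1 Low and 10 in ES Medium of replicate 2.

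**Figure D1:**
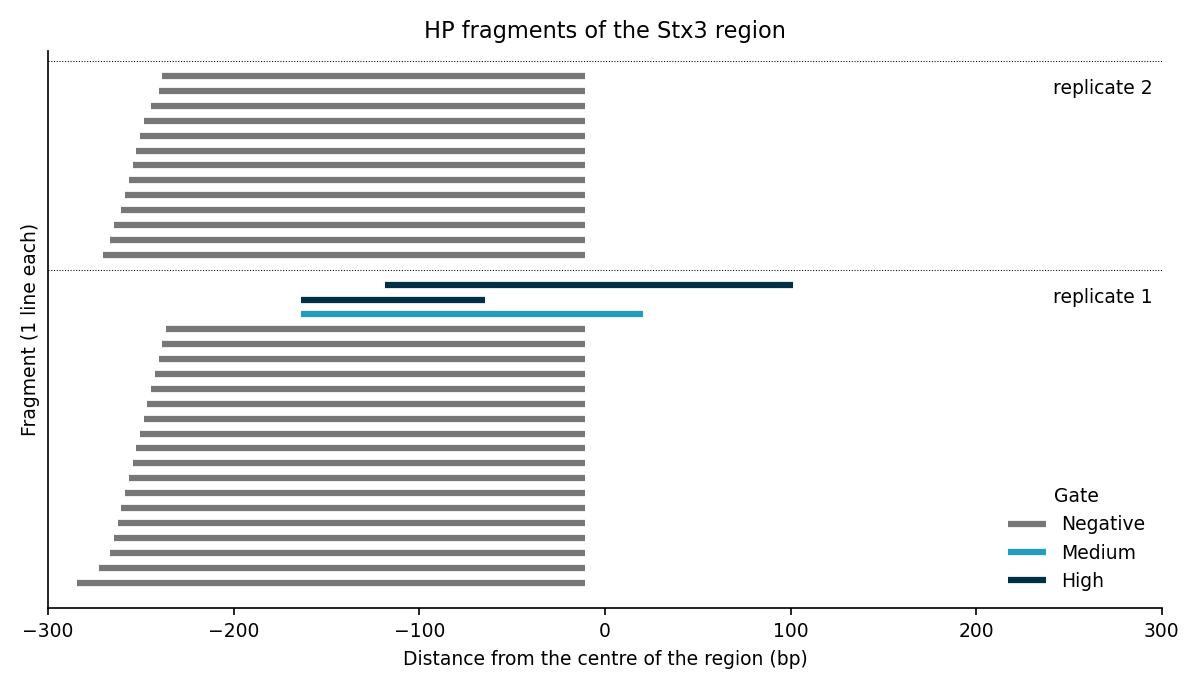
Each horizontal line is 1 HP fragment of the Stx3 region, plotted by distance in bp from the centre of the region and coloured by gate, with replicate 1 in the lower and replicate 2 in the upper block. The 18 and 13 Negative fragments share their right end and step at their left end, while the 3 positive fragments of replicate 1 have other ends.

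The other 3 called regions also held chains of fragments linked by a shared end. An intron region nearest 4930533K18Rik held 17 High fragments and 1 Negative fragment in replicate 2 and none in replicate 1 (17 positive against 4.65 expected, adjusted p = 7.56e-08). Its 17 High fragments had 17 different starts and 1 end, and were counted once as 1 fragment. A region between genes nearest Ndufa8, a subunit of mitochondrial complex I (chr2:36021569-36022324), held 3 Medium and 1 High fragment in replicate 1 and 9 Medium fragments in replicate 2, with no Negative fragment in either (13 positive against 5.62 expected, adjusted p = 0.0017). The 9 Medium fragments had 8 starts in the AC run printed above and 2 ends. A region between genes, at -81878 bp from the start site of the forkhead factor gene Foxk1 (chr5:142319254-142319923), held 7 Negative and 1 High fragment in replicate 1 and 1 Negative and 1 Medium fragment in replicate 2 (2 positive against 7.11 expected, adjusted p = 0.0447). Its 7 Negative fragments of replicate 1 had 4 starts and 5 ends, were 91 to 328 bp long, and came down to 2 once shared ends were joined. A chain linked 6 of them, with right ends that differed by a few bases and no repeat there. With fragments that share an end counted once, 0 of 650 regions passed the test, 13 having an unadjusted p under 0.05. This alternative was added after the ladders had been seen.

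Such chains were found in all 8 lists, and the lists do not show whether the fragments of a chain are separate inserts. Over the 8 HP lists there were 125 chains of 5 or more fragments linked by a shared end, 84 of them in Negative lists, and 100 of the 125 (80.0%) had a run of 6 or more copies of a repeated pair of bases at their variable ends. Of all HP fragments 2.82% held such a run. Between 4.601% and 9.26% of the fragments of a replicate 1 list shared an end with another, and 14.9% to 33.8% in replicate 2, most of all in High. Fragments with a repeat run made up 0.975% to 1.75% of the replicate 1 lists and 4.79% to 8.47% of the replicate 2 lists.

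The regions next in order did not pass. Those with more positive fragments lay nearest Gsg1l, Gm44 and Dlgap3 and held fragments in replicate 2 alone, each list coming down to 1 fragment when shared ends were joined. Those with fewer lay nearest Bcorl1 (7 Negative, 2 Low, 1 Medium and 1 High in replicate 1, adjusted p = 0.0518), Cry2, a clock repressor (5, 0, 1 and 1 in replicate 1 and 3 Negative in replicate 2, adjusted p = 0.194), and Hk2, a hexokinase (6, 2, 1 and 1, and 1 Negative in replicate 2, adjusted p = 0.222). With shared ends joined, 5, 5 and 6 Negative fragments were left in replicate 1, and the 3 Negative fragments near Cry2 in replicate 2 came down to 1.

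Regions with the most HP fragments were found in all gates of replicate 1, and 4 of them are given here. Nearest Clec11a, which codes for a secreted growth factor of blood and bone, 4 Negative, 4 Low, 17 Medium and 27 High fragments were found in replicate 1 and 5 Negative and 1 High in replicate 2. This was 49 positive against 44.4 expected. The regions nearest Per1, Gatad2b and Smtn held 39 to 44 HP fragments and 0.897 to 1.04 times the expected positive number. None of the 4 passed the test (adjusted p = 1 for each).

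By gene, with each fragment given to its nearest start site, 1 of 555 genes with at least 20 HP fragments passed (0.18%), and 30 had an unadjusted p under 0.05 (5.41%). The gene was Stx3, with 4 positive against 21.5 expected (adjusted p = 5.45e-10), and its call rested on the ladder described above. Next in order among genes with fewer positive fragments were Phb, a prohibitin (15 against 22.2 expected), Gm8273 (16 against 22.8) and Arhgef3, a RhoA exchange factor (7 against 12.8), and among those with more, Gsg1l (20 against 12.2), Dlgap3 (13 against 6.46) and Fbxl18 (18 against 13.1). Their adjusted p-values lay between 0.351 and 0.612. With shared ends counted once, 0 of 417 genes passed and 11 had an unadjusted p under 0.05.

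Whether a gate brought back its own regions in the other replicate was asked by the Jaccard index, the share of regions held by both of 2 lists among those held by either, after thinning each list to 1630 fragments. The same gate gave 1.40% on average and different gates 1.38%, a difference of 0.0271 percentage points (one-sided exact permutation of the gates of replicate 2, p = 0.292, n = 8, 24 arrangements). Negative of replicate 1 had its highest value with Negative of replicate 2 (1.69%), but High of replicate 1 was closer to Low (1.536%) and Negative (1.498%) than to High (1.459%). Of 575 regions positive in both replicates, 173 had no Negative fragment in either, and of 1012 regions Negative in both, 56 had no positive fragment. High recurred in 165 regions, 39 of them with no Negative fragment. Of all positive regions, 35.1% in replicate 1 and 23.3% in replicate 2 also held a Negative fragment of that replicate. Of all Negative regions, 83.1% and 8.04% also held a positive one. These shares moved with the depth of the lists, so the counts are not read as a result about the regions. The difference between same and different gates turned below 0 without thinning (-0.0822), without shared fragments (-0.0581) and with shared ends counted once (-0.0135). With the positive gates joined and lists thinned to 5208 fragments, positive fragments of both replicates gave 3.15%, positive of replicate 1 with Negative of replicate 2 gave 3.70%, Negative with positive 3.37% and Negative with Negative 3.88%. The pairing of positive with positive was the lowest of these 4, and recurrence was not shown to follow the gate.

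Position in the genome was compared next. In replicate 1, 51.2% of positive and 51.8% of Negative fragments had their centre in a gene body, and in replicate 2, 52.5% and 52.9%. The difference was -0.513 ± 0.177 percentage points (SD, n = 2). With 2 replicates, exchanging the labels within each replicate cannot give a two-sided p below 0.5, and this was the value found. The 8 lists lay between 50.7% and 53.8%, with Low the lowest in replicate 1 and the highest in replicate 2. Introns held 43.8% of positive and 44.5% of Negative fragments in replicate 1 and 46.4% and 47.0% in replicate 2, and exons held 7.37% and 7.28% and then 6.09% and 5.93%. The gene-body difference at HP was compared with that of the other stages by exchanging stages within replicates (25 arrangements, smallest p 0.04), and the exact permutation p was 0.88 (n = 10).

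The median distance from a fragment to the nearest start site was 16112 bp for positive and 16686 bp for Negative fragments in replicate 1, and 24681 bp and 23853 bp in replicate 2. The replicates moved in opposite directions, by -574 and 828 bp, and lay further from each other than the gates did. Fragments over 100 kb from a start site made up 7.08% of positive and 7.40% of Negative fragments in replicate 1 and 16.8% and 17.1% in replicate 2. Against the other stages the exact permutation p was 0.96 for the median distance. The gene-body share was thus lower in positive fragments by under 1 percentage point in both replicates, and the distance had no common direction.

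**Figure D2:**
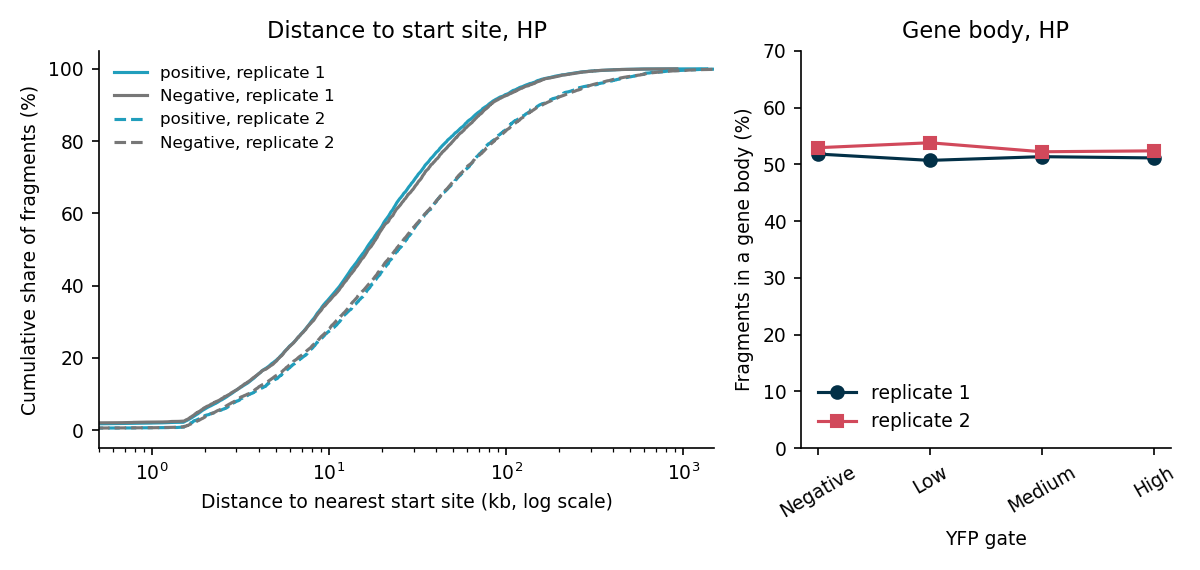
Left, the cumulative share of HP fragments (%) by distance to the nearest start site (kb, log scale), for positive and Negative fragments of each replicate. Right, the share of fragments (%) with their centre in a gene body by gate, 1 point per list. The curves of positive and Negative fragments nearly overlie within a replicate, and the curves of the 2 replicates are set apart.

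Fragment length was compared by gate. In replicate 1 the median length was 184 bp in Negative, 178 in Low, 154 in Medium and 126 in High, and in replicate 2 it was 202, 190, 189 and 193 bp. All 3 positive gates had shorter fragments than Negative in both replicates, by -41 bp and -12 bp for the union. Mean GC content was 55.4, 55.6, 55.6 and 56.5% in replicate 1 and 50.2, 50.7, 50.2 and 50.3% in replicate 2. A trend over the order of the gates was tested by exchanging the gates within each replicate (576 arrangements), a test chosen after the values per gate had been seen, and for length the exact permutation p was 0.0243 (0.267 after adjustment over the 11 position, length and GC measures, n = 8). Since a longer fragment has more bases in which a motif can match, motif shares are given below also with length held equal.

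Motif content was compared for 11 consensus sequences on fragments over 1500 bp from a start site. CTCF was the only consensus found more often in positive fragments of both replicates. In replicate 1 it was present in 379 of 8251 Negative fragments (4.59%), 226 of 4750 Low (4.76%), 1009 of 17917 Medium (5.63%) and 1101 of 16149 High fragments (6.82%). In replicate 2 it was present in 157 of 14818 Negative (1.06%), 29 of 2191 Low (1.32%), 25 of 1620 Medium (1.54%) and 36 of 1779 High fragments (2.02%). The share rose at each step from Negative to High in both replicates, although replicate 2 lay far below replicate 1 in every gate. The slope was 0.755 percentage points per gate step in replicate 1 and 0.311 in replicate 2. The exact permutation p was 0.00347, the smallest that 576 arrangements give in two-sided form, and 0.0382 after Benjamini-Hochberg adjustment over 11 motifs (n = 8).

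The slope of CTCF kept its sign under the 7 other ways of counting that were tried after it had been seen. In the 100 bp of genome around the centre of each fragment, called its central 100 bp, the shares were 2.92, 3.52, 4.41 and 6.02% in replicate 1. In replicate 2 they were 0.634, 0.730, 1.05 and 1.24% (adjusted p = 0.0191 by the same exact permutation). For fragments under 100 bp this window also took in bases outside the insert, and the shortest of the 5 length classes used below ended at 98 bp. With 5 length classes weighted equally they were 4.67, 4.89, 5.51 and 6.03%, and 1.23, 1.36, 1.58 and 2.10% (adjusted p = 0.0382). The rise was thus present with length held equal. Its slope was smaller than on whole fragments in both replicates, at 0.467 and 0.281 percentage points per step (mean 0.374 against 0.533). With shared ends counted once, with near-identical fragments counted once and with each region weighted equally the adjusted permutation p was also 0.0382. It was 0.0573 with 5 GC classes weighted equally, where Low of replicate 2 (1.82%) lay above Medium (1.78%), and 0.0764 among fragments found in 1 list alone, where Low of replicate 2 (0.899%) lay below Negative (1.01%). Within a replicate alone, 24 arrangements cannot give a p below 0.0833.

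The CTCF fragments came from many places. The consensus was found in 1182 regions in positive fragments of replicate 1 and in 69 of replicate 2, and in 26 in both. Of these 26, 16 had it in no Negative fragment, and for Negative fragments the numbers were 307, 141 and 22 in both. Among all 575 regions positive in both replicates, with or without the consensus, 173 held no Negative fragment at all, a stricter count. Replicate 1 had more positive than Negative fragments, so the 16 is not read as a result about CTCF. The matching count for the 22 was not made. The region nearest Myo18a printed above held 2 Negative, 2 Low, 4 Medium and 3 High fragments with the consensus in replicate 1 and 6, 3, 0 and 2 in replicate 2. The one nearest Gm10785, in an intron, held 0, 2, 6 and 5 and then 0, 0, 0 and 2. The one nearest Snx32 held 0, 1, 5 and 3 and then 2, 0, 0 and 1, and the one nearest Tnfrsf14, a receptor of the TNF family, held 0, 1, 4 and 5 and then 1 in each gate. Of the 4, only the Gm10785 region had the consensus in no Negative fragment of either replicate. In replicate 1 the consensus lay closer to the fragment centre in higher gates, with a median distance of 21, 17.5, 14.5 and 12.5 bp, beside the shorter fragments there. In replicate 2 the medians were 27.5, 38, 21 and 27.5 bp, with no order.

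RUNX, the consensus of the factor that drives the endothelial-hematopoietic transition, went the other way. It was present in 10.4% of Negative, 9.89% of Low, 8.44% of Medium and 7.44% of High fragments of replicate 1 and in 8.77, 7.53, 8.64 and 6.97% of those of replicate 2. All positive gates lay below Negative in both replicates, and the union by -2.16 and -0.946 percentage points. The slope had a permutation p of 0.0312 (adjusted 0.0859) on whole fragments and 0.0417 (adjusted 0.153) with length held equal. In the central 100 bp the shares fell at each step, from 6.39 to 6.17, 5.57 and 5.46% and from 4.43 to 4.34, 3.58 and 3.26%, with an adjusted exact permutation p of 0.0191. That window again took in bases outside the shorter inserts. PU.1, the product of Spi1, has a consensus that was also lower in every positive gate, with 3.65, 3.58, 3.04 and 2.82% and then 2.29, 1.83, 1.60 and 1.74% (adjusted permutation p = 0.0764, and 0.153 with length held equal).

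**Figure D3:**
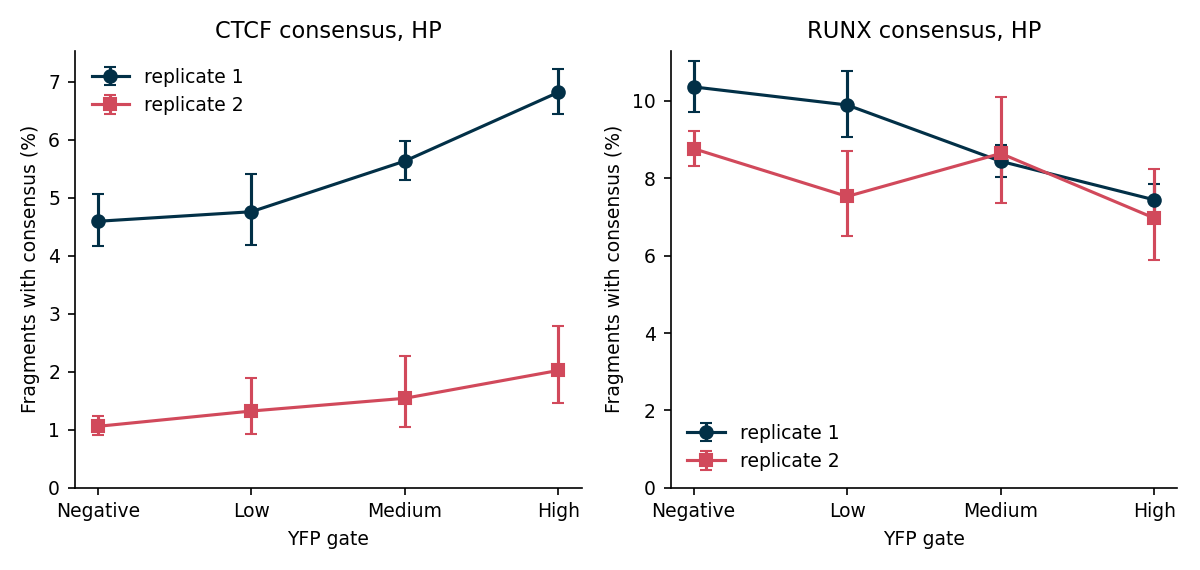
Share of HP fragments over 1500 bp from a start site (%) with the CTCF (left) and RUNX (right) consensus by YFP gate, for replicate 1 (circles) and replicate 2 (squares), with Wilson 95% intervals that cover counting error only. The CTCF share runs from 4.59 to 6.82% and from 1.06 to 2.02%, and the RUNX share ends lower in High than in Negative in both replicates.

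Of the other motifs, 6 were lower in positive fragments of both replicates. The E-box CAGCTG, a site of basic helix-loop-helix factors such as TAL1, was in 14.6% of positive and 16.7% of Negative fragments of replicate 1 and in 13.0% and 14.0% in replicate 2 (adjusted permutation p of the slope 0.0859, and 0.544 with length held equal). For RBPJ, the partner of NOTCH, the shares were 15.4 and 18.6% and then 18.4 and 20.4%. TEAD stood at 5.21 and 5.999% and then 5.54 and 6.05%, SOX at 6.05 and 7.34% and then 6.95 and 7.32%, AP1 at 7.75 and 7.95% and then 5.90 and 6.25%, and OCT at 0.773 and 1.04% and then 0.949 and 1.03%. The GATA consensus was lower in positive fragments of replicate 1 (4.61 against 5.77%) and not in replicate 2 (3.72 against 3.59%). The palindrome TTGCGCAA, used for CEBP, was found in under 0.1% of the fragments of either side in both replicates. None of these 8 slopes passed the adjusted threshold on whole fragments.

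The difference between positive and Negative fragments was then set against that at the ES, HB, HE1 and HE2 stages. For CTCF it was 1.42 and 0.528 percentage points at HP and between -0.364 and 0.363 in the 8 sorts of the other stages, where a sort is 1 stage of 1 replicate. The HP differences for CTCF, RUNX, PU1 and EBOX each reached the smallest permutation p of the 25 arrangements, 0.04 (adjusted 0.11 over 11 motifs, n = 10). A lower RUNX share in positive fragments was also found at HB, by -0.830 and -0.942 percentage points in the 2 replicates. The RUNX slope at HB was -0.470 and -0.588 per step (unadjusted exact permutation p = 0.0208, n = 8), beside -1.02 and -0.428 at HP. The slope of CTCF over the gates averaged 0.533 percentage points per step at HP and 0.0503 at the other stages, also with p = 0.04 (adjusted 0.44, exact permutation). The slope was also above 0 in both replicates at HB (0.109 and 0.0829) and at HE2 (0.112 and 0.0675). In the central 100 bp these stages had slopes of 0.264 and 0.173, and of 0.178 and 0.112, with unadjusted exact permutation p-values of 0.0417 and 0.0382 (n = 8 each). With length held equal, the HE2 slopes were 0.100 and 0.395 (unadjusted exact permutation p = 0.0278, n = 8), beside 0.467 and 0.281 at HP. At ES, HB and HE1 the replicates then had opposite signs. After adjustment none of these differences between HP and the other stages passed.

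**Figure D4:**
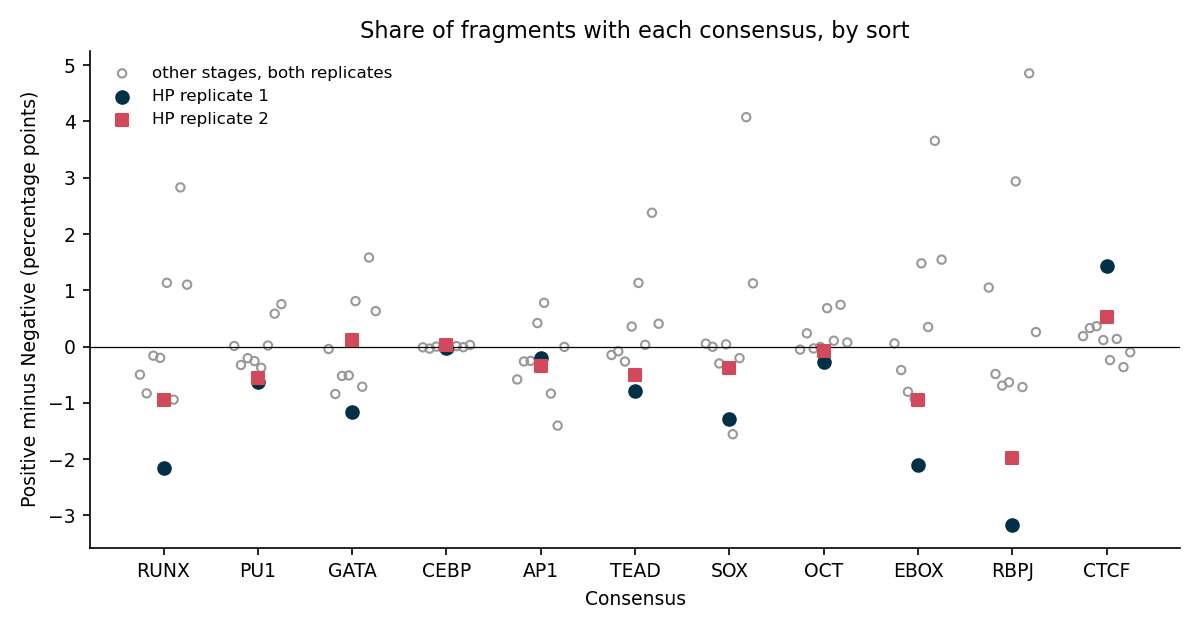
Share of fragments with each of 11 consensus sequences in positive minus Negative fragments (percentage points), with HP replicate 1 as filled circles, HP replicate 2 as filled squares and the 8 sorts of the other stages as open circles. For CTCF both HP values (1.42 and 0.528) lie above the other stages, and for RUNX, EBOX and RBPJ both lie below 0.

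Genes near the fragments were compared by 8 lists, counting fragments in a listed gene or within 25 kb of it. Genes tested this way numbered 1281 with at least 20 HP fragments, of which 1 passed (0.0781%, Stx3) and 55 had an unadjusted p under 0.05 (4.29%). Over all of them 50.0% had more positive fragments than expected and the median ratio of observed to expected was 1.00. No member of any list passed.

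Fragments near 30 blood transcription factors made up 0.600% of positive and 0.638% of Negative fragments in replicate 1 and 0.480% and 0.529% in replicate 2. There were HP fragments at 28 of the 30, 6 had 20 or more, and 2 of these 6 lay above and 4 below the expected number (median ratio 0.983). Meis1, a homeobox factor of blood stem cells, had 32 positive and 7 Negative fragments in replicate 1 and 1 and 6 in replicate 2, which was 33 positive against 34.0 expected. Zfpm1, which codes for a partner of GATA1, had 28 against 28.2 and Lyl1, a relative of Tal1, 15 against 17.5. Runx1 itself had 10 positive and 2 Negative fragments in replicate 1 and 2 and 11 in replicate 2 (12 against 13.2), and Spi1 18 and 4 and then 1 and 2 (19 against 18.9). Each of these stood within a few fragments of the number that gate depth alone gives.

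Around 32 blood surface and signalling genes the shares were 0.580% of positive and 0.568% of Negative fragments in replicate 1 and 0.346% and 0.241% in replicate 2, and 2 of 6 genes with enough fragments lay above the expected number (median ratio 0.983). Cd33, a sialic-acid receptor of myeloid cells, had the lowest unadjusted p of all list members, with 14 positive and 2 Negative fragments in replicate 1 and 8 and 1 in replicate 2, or 22 against 15.5 expected (adjusted p = 0.464). All 8 positive fragments of replicate 2 were in Low, and they came down to 2 with shared ends counted once. Itga2b, which codes for the CD41 by which HP cells were sorted, had 29 against 28.0 expected, Socs3, a brake on cytokine signalling, 43 against 44.4, Vav1, an exchange factor of blood cells, 31 against 33.2, and Stat5a, a cytokine-driven factor, 18 against 18.3.

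The 32 endothelial genes held the largest share among the lists in replicate 1, with 0.877% of positive and 0.934% of Negative fragments, and 0.423% and 0.589% in replicate 2. Of 11 tested genes 4 lay above and 7 below the expected number (median ratio 0.983). Egfl7, a secreted endothelial protein, had 35 positive fragments against 35.6 expected, Eng, a TGF-beta co-receptor, 33 against 31.0, Sparc, a matrix protein, 35 against 32.4, Nos3, the endothelial nitric oxide synthase, 24 against 25.4, and Notch1 21 against 21.8. At Notch1, 11 of the 13 Negative fragments came from replicate 2, where no positive one was found.

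The AP-1 and small MAF list had a like excess of positive fragments in both replicates. These genes code for basic leucine zipper factors, and fragments near them made up 0.444% of positive and 0.331% of Negative fragments in replicate 1 and 0.288% and 0.181% in replicate 2, a difference of 0.110 ± 0.00362 percentage points (SD, n = 2). By gate the shares were 0.331, 0.431, 0.448 and 0.442% in replicate 1 and 0.181, 0.361, 0.123 and 0.334% in replicate 2, so that Medium of replicate 2 lay below Negative. Against the other stages the exact permutation p was 0.04, the smallest possible (adjusted 0.32 over 8 lists, n = 10), and with shared ends counted once the difference came down to 0.0453. Of the 4 tested genes 3 lay above the expected number, with Junb at 41 against 38.2, Fosb at 26 against 23.0 and Maff at 17 against 15.6, and Fos at 61 against 61.4. Batf3, with 8 against 7.06, had too few fragments for the test.

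The remaining 4 lists had no member past the test. Near 20 TEAD and Hippo genes lay 0.373% of positive and 0.260% of Negative fragments in replicate 1 and 0.173% and 0.134% in replicate 2, with Tead1, a Hippo effector, at 29 against 27.7 expected, Nf2, an upstream activator of the pathway, at 23 against 20.6, Amotl2 at 18 against 18.1, Vgll4, a TEAD cofactor, at 19 against 17.0 and Tead3 at 15 against 12.6. Near the 23 pluripotency genes the replicates moved in opposite directions (0.174 and 0.130%, then 0.0960 and 0.161%), and the only tested gene, Klf2, had 17 against 15.4. Lin28b had 14 against 13.1, Esrrb 12 against 11.5, Klf4 8 against 7.68 and Sall4 5 against 5.20. No gene of the 21 in the mesoderm and cardiac list reached 20 HP fragments. Mesp1 and Mesp2, which lie side by side and share fragments, had 11 against 8.87 and 7 against 5.31, Gata4 10 against 7.84, Tnnt2 11 against 9.28 and Hand2 10 against 8.76. Near the 20 synaptic genes the shares were 0.129 and 0.130% and then 0.2497 and 0.3546%. Dlgap1 had 17 against 18.9, Gabbr2 11 against 12.2, Shank2 10 against 10.1, Cntnap2 4 against 2.33 and Csmd1 3 against 2.94.

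**Figure D5:**
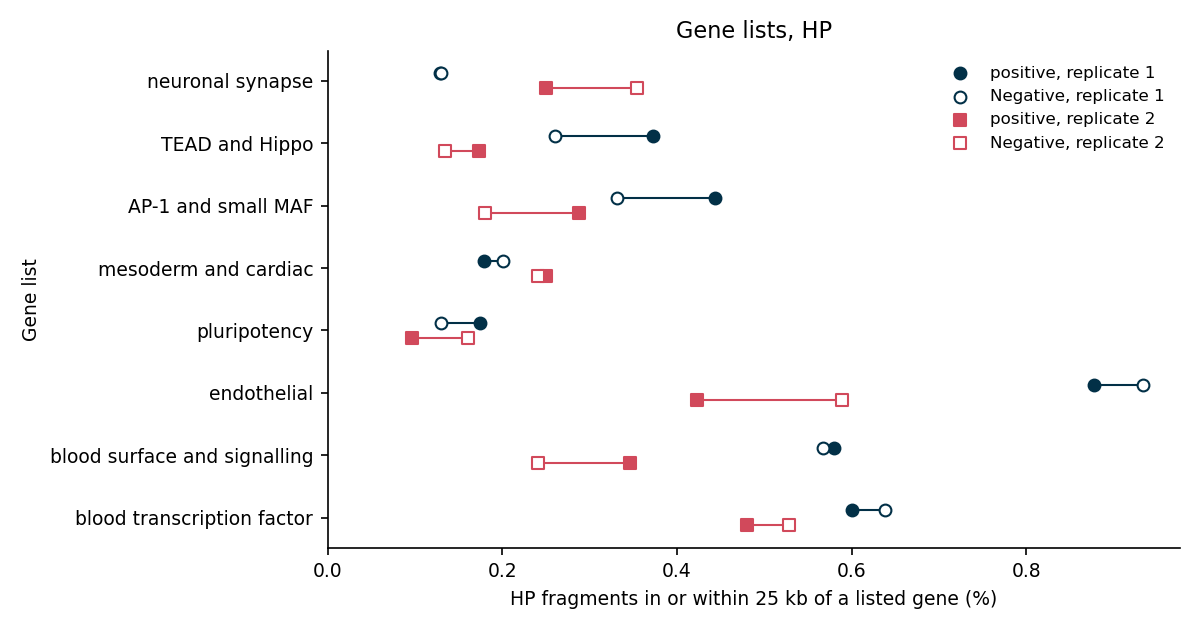
Share of HP fragments (%) in or within 25 kb of a gene of each of 8 lists, for positive (filled) and Negative (open) fragments of replicate 1 (circles) and replicate 2 (squares), joined by a line per replicate. The AP-1 and small MAF list has the filled symbol to the right of the open one in both replicates, as have TEAD and Hippo and blood surface and signalling, while for pluripotency and for mesoderm and cardiac the replicates point in opposite directions.

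At the loci of 10 blood regulators the most often positive region held fragments of replicate 1, and those at Runx1 and Spi1 also held 1 Negative fragment of replicate 2. At Runx1 it lay in an intron 3653 bp into the gene (chr16:92822070-92822770) and held 1 Negative, 1 Low, 3 Medium and 1 High fragment in replicate 1 and 1 Negative fragment in replicate 2. At Spi1 it lay in an intron (chr2:91082606-91083370) and held 3, 2, 5 and 4 fragments and then 1 Negative fragment. The fragment nearest the middle of this Spi1 region was centred 589 bp from the start site, within the 1500 bp left out of the motif comparison. At Gata2, needed for blood stem cells, it lay at -4053 bp from the start site (chr6:88189390-88190285) and held 3 Negative, 3 Medium and 7 High fragments, and at Tal1 it lay at -3546 bp (chr4:115052402-115053352) and held 1 Negative, 2 Low and 5 Medium fragments. Both were found in replicate 1 alone.

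The region at Fli1, an Ets factor gene, lay at -15003 bp (chr9:32556157-32556743) and held 1, 1, 2 and 1 fragments. The Gfi1b region lay between genes, nearest the start site of Gtf3c5 (chr2:28599008-28599886), and held 2, 1, 3 and 1 fragments. The Itga2b region, in an intron and nearest the start site of Fam171a2 (chr11:102455659-102456499), held 2, 2, 7 and 3. The Lmo2 region, in an intron and nearest the start site of Fbxo3 (chr2:104002687-104003214), held 3 Medium fragments. The Kit region, in an intron of that receptor gene (chr5:75607993-75608305), held 1 Low fragment. The Csf1r region, in an intron and nearest the start site of Mir6983, held 1 Low, 2 Medium and 5 High fragments. No Negative fragment was found in these 3. All fragments of the regions from Fli1 to Csf1r were again from replicate 1, whose positive lists together were deeper than its Negative list. Only the regions at Spi1, Gata2 and Itga2b had enough fragments for the test, with 11 positive against 11.8 expected, 10 against 10.7 and 12 against 11.5 (adjusted p = 1 for each).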

How the data were processed

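Fragment lists of 8 HP gates (4 gates in each of 2 replicates) were compared. The lists do not show whether fragments that share an end are separate inserts, so counts are of listed fragments. Per the labels and the methods, the authors used Trim Galore on the read pairs, Bowtie2 for alignment to mm10, and SAMtools to retain properly paired reads whose mapping quality exceeded 40, then reduced repeats to unique fragments and filtered them with bedtools and HOMER; versions and which filters reached the deposited lists are not given in the sources used here. The deposited values are coordinates in base pairs, with no read counts, scores or molecular identifiers, so depth is the number of fragments and intervals (Wilson, 95%) cover counting error only. The number of lists limits precision.

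Fragments were placed by their centre on RefSeq transcripts of GRCm38 (31601 start sites), no fragment passing a chromosome end. Regions needed 10 and genes 20 HP fragments. A limit of 25000 bp was used for lists and loci, and a threshold of 0.05. Motifs were searched on both strands, and matches to different motifs may overlap. EBOX was searched as CAGCTG, and the motif named RBPJ as TGGGAA. The spelling used for the GATA factors was AGATAAG. For RUNX both TGTGGTC and the form ending in T were accepted. AP1 was taken as TGACTCA with either C or G in its middle. For TEAD the letters were GGAATGC, with the last base also allowed as T. SOX was searched as ACAATGG, with A also allowed in place of its T. Longer spellings were GAGGAAGT for PU1, TTGCGCAA for CEBP and ATGCAAAT for OCT, and the CTCF consensus is given by name. Named items were the called regions and genes with the next 3 in each direction, the 5 most covered regions (1 is not reported here), 5 genes per list by HP fragments and 10 loci. Members, lists and tests were chosen with earlier results of these data known.

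The titles number the replicates, and the replicate was a stratum or block throughout. The labels do not state what the number marks or whether the replicates were separate cultures. Permutation and limma p-values therefore measure only the spread between these samples, which may be technical. Cochran-Mantel-Haenszel p-values cover the counting of fragments only. Computations used Python 3.11.15, scipy 1.17.1, R 4.3.3 and limma 3.58.1. On simulated data with the real depths, the Cochran-Mantel-Haenszel test called 22.0% of 50 regions whose odds of being positive were set to 0.25 and 0 of 50 set to 4, among 883 regions, and 46.0% and 16.0% of 50 genes among 564. limma was run on log2 values computed from the deposited lists, and on the same simulated counts it called none of these regions or genes. In the simulation fragments were drawn independently, without shared ends and without fragments listed in several gates. The real lists held fragments of both kinds, so these shares do not describe the tests on such lists.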

Additional observations from a re-analysis of the deposited data

Results flagged for a closer look

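Of the differences between HP and the ES, HB, HE1 and HE2 stages, 8 reached the smallest p that exchanging stages within replicates can give (0.04, exact permutation, n = 10), and none passed adjustment. In positive minus Negative fragments, HP exceeded the mean of the other stages by 0.923 percentage points for CTCF and by 0.167 for the AP-1 and small MAF list, and stood at -1.86 for RUNX, -0.62 for PU1 and -2.15 for EBOX. For the slope over the gates, CTCF at HP exceeded the other stages by 0.483 percentage points per step on whole fragments, 0.471 in the central 100 bp and 0.543 with GC classes weighted equally. With length classes weighted equally the CTCF difference between stages was 0.325 (exact permutation p = 0.08, n = 10). Both HP values lay on the same side of 0 in each case. At HB the RUNX difference was also below 0 in both replicates, and the CTCF slope on whole fragments was above 0 in both. For HE2 the CTCF slope was above 0 in both replicates on whole fragments and with length classes weighted equally. No sample stood far from its group by a test, since groups held 2 samples.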

How the results depend on the processing

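Without the replicate block, with the replicates pooled, 13 regions and 5 genes passed, and positive minus Negative became -1.20 percentage points for gene body, -3836 bp for distance, -49 bp for length and 3.24 percentage points for GC content.

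Of the 4 regions and 1 gene called, 2 and 0 passed with near-identical fragments counted once, 0 and 0 with shared ends counted once, and 0 and 0 with limma, which had 48 regions and 17 genes at an unadjusted p under 0.05. A minimum of 5 fragments gave 22 regions and of 20 gave 1, and a minimum of 10 gave 9 genes and of 50 gave 0. Low alone gave 4 genes and High alone 2. Leaving out a replicate gave 1 to 5 regions and 1 to 3 genes, the lower region count without replicate 2 and the higher gene count without replicate 1.

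The gene-body difference ran from -0.638 to -0.388 when a replicate was left out, and was -0.125 for Low alone, -0.765 without shared fragments, -0.697 with near-identical fragments once and -0.737 with shared ends once. Distance ran from -574 to 828 bp, length from -41 to -12 bp and GC content from 0.167 to 0.551. Of 8 lists 6 moved the same way in both replicates, but 1 for Medium alone. Same-gate recurrence turned below different-gate recurrence without thinning (-0.0822), without shared fragments (-0.0581) and with shared ends once (-0.0135).

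The CTCF slope ran from 0.311 to 0.755 over single replicates and missed the adjusted threshold with GC classes weighted equally (0.569) and in fragments of 1 list alone (0.527). The RUNX slope ran from -1.02 to -0.428 and passed in the central 100 bp (-0.383), with shared ends once (-0.616), near-identical fragments once (-0.677) and regions weighted equally (-0.601). The number of motifs passing was 1 on whole fragments, 2 under these 4 settings and 0 under the 2 in which CTCF missed. The slopes, the GC, length and region weights, the list-alone setting and the joining of shared ends were chosen after the values were seen. The causes were not tested. Depth limits all calls: the smaller gates of replicate 2 held 1630 to 2215 fragments, and most regions had too few fragments for a test.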
